A study of Homo sapiens with 24 samples.

Results

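The nuclear genes for phenylalanine (Phe), tyrosine (Tyr) and tryptophan (Trp) transfer RNAs were followed in HEK293, a long-established human line derived from embryonic kidney, through small RNA sequencing and ATAC-seq. Members were the nuclear features whose deposited class began with tRNA and whose first deposited name began with tRNA-Phe, tRNA-Tyr or tRNA-Trp. The rule found 33 features among 175946 annotated features: 11 Phe, 15 Tyr and 7 Trp genes. All cells were wild type by their labels and had been made to overexpress eGFP (the control, called GFP here), LMNA, LMNB1 or LMNB2. Each group had 3 replicates per assay, 24 libraries in all. The vector, the time after overexpression and the level of each lamin are not given in the sources used here, and nothing says that replicates were separate cultures, so p-values measure the spread between these libraries. A batch label was constant within each assay.

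Transfer RNAs carry amino acids to the ribosome, where the anticodon reads the codon. RNA polymerase III transcribes their genes from promoter elements inside the gene, which the factor TFIIIC binds before TFIIIB recruits the polymerase. Human Tyr tRNA genes carry an intron that is spliced out of the precursor, whereas the Phe and Trp genes have none. LMNA, LMNB1 and LMNB2 encode lamins, the filament proteins that line the inner nuclear membrane and contact chromatin. ATAC-seq counts insertions of a transposase, which are dense in open DNA.

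Of the 33 genes, 12 lay on chromosome 6 (6 Phe, 4 Tyr and 2 Trp). Another 5 Tyr genes lay on chromosome 14 between 20653074 and 20683386 (build GRCh38, positions counted from 1). RefSeq (GRCh38.p14) held a tRNA gene at 31 of the 33 positions, and those genes are called by their RefSeq symbols, in which TRF stands for Phe, TRY for Tyr and TRW for Trp. The RefSeq genes were 73 to 77 bp long for Phe, 89 to 94 bp for Tyr and 72 bp for Trp. The features named tRNA-Tyr-GTA-10-1 and tRNA-Tyr-GTA-9-1 had no RefSeq tRNA gene and keep their deposited names. Every Phe gene had the anticodon GAA and every Trp gene CCA, and the Tyr genes had GTA except TRY-ATA1-1.

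Small RNA libraries held 132507051 to 195074742 counts and ATAC libraries 156043245 to 290158229, and 25024 to 52698 small RNA counts fell on the 33 members. The GFP small RNA libraries stood apart from one another: their scaling factors (TMM, which corrects for composition) were 0.63, 0.90 and 1.31, while the 9 lamin libraries lay between 0.88 and 1.16. Comparisons with GFP are therefore also given without single GFP libraries. The mitochondrial share of ATAC counts was 39.9% to 47.5% in GFP and 24.5% to 30.7% in LMNB2, and its part in the ATAC results was not tested. The microRNA genes that mark liver, blood, muscle and neurons reached at most 8 counts in any library. Levels below are CPM, counts relative to library size after that scaling, and CPM per kb where genes are compared with each other.

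Tyr genes carried most of the small RNA signal of the set. They held 86.9% of the members' CPM, against 9.09% for Phe and 4.05% for Trp. The median level was 63.0 CPM per kb over the 15 Tyr genes, 9.25 over the 11 Phe genes and 10.1 over the 7 Trp genes. TRY-GTA2-1 (chr2:27050757-27050895, plus strand) averaged 386 CPM per kb over the 12 libraries, and TRY-GTA1-1 (chr6:26568833-26568973, plus strand) averaged 287. These 2 Tyr genes were the most abundant members in the small RNA libraries. The highest Phe genes were TRF-GAA1-5 (chr13:94549625-94549747, minus strand) at 38.4 CPM per kb and TRF-GAA3-1 (chr6:28807808-28807930, minus strand) at 37.9. The highest Trp genes were TRW-CCA4-1 (chr12:98504227-98504348, plus strand) at 26.4 CPM per kb and TRW-CCA2-1 (chr17:19508156-19508277, plus strand) at 21.7.

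The low end of the Tyr group was nearly empty. TRY-ATA1-1, the Tyr gene with an ATA anticodon, had 1 count in 1 GFP library and 0 in the other 11. A count of 0 allows up to 3 counts, or 0.122 to 0.18 CPM per kb in those libraries, and this limit covers counting error only. The feature tRNA-Tyr-GTA-9-1 on chromosome 8 had 0 to 10 counts per library. Both failed the filter on low counts, so the small RNA test covered 31 of the 33 members.

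**Figure D1:**
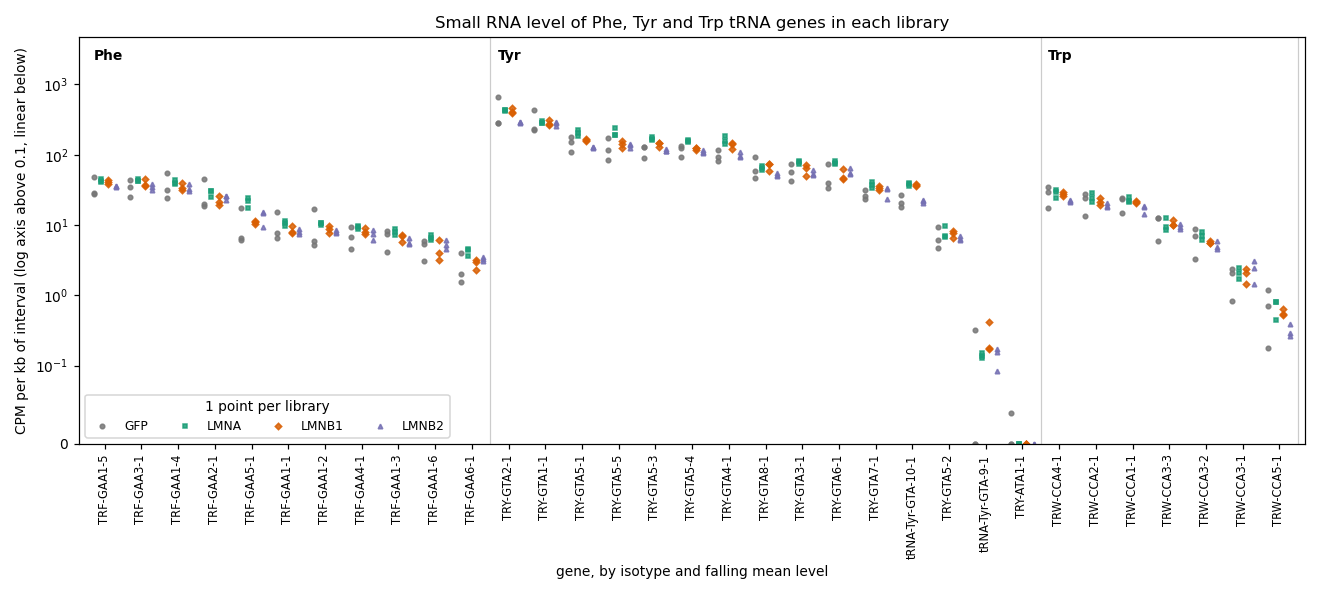
Small RNA level of each of the 33 genes in CPM per kb of interval (log axis above 0.1, linear below), 1 point per library, coloured by group and ordered by isotype and mean level. By their mean, 10 Tyr genes sit above all Phe and Trp genes, TRY-GTA2-1 leads with 386, and the gray GFP points are the most scattered.

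Copies that share a deposited name did not share a level. The 6 copies named tRNA-Phe-GAA-1-4 ranged from 5.28 to 38.4 CPM per kb, a 7.28-fold range. The 5 copies named tRNA-Tyr-GTA-3-2 ranged 22.4-fold, from 7.13 (TRY-GTA5-2) to 160 CPM per kb (TRY-GTA5-1), although those 2 genes are neighbours on chromosome 8. The 3 copies named tRNA-Trp-CCA-1-5 ranged from 2.04 to 10.1 CPM per kb. How reads that fit several copies were counted is not given in the sources used here, so the share of a level that belongs to one copy is uncertain, and copies of one name are not independent.

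LMNA against GFP asked whether the A-type lamin moved these RNAs. The summed level was taken over all 33 members, including those that failed the filter on low counts. It was 277, 184 and 288 CPM in the GFP libraries and 321, 297 and 308 in the LMNA libraries. After TMM scaling the LMNA libraries lay above all 3 GFP libraries, with means of 309 ± 12 and 250 ± 57.2 CPM (SD, n = 3). This separation of the summed level depended on the scaling. Relative to total counts only, the summed levels were 175, 166 and 376 in GFP and 325, 284 and 270 in LMNA. There, GFP replicate 3 lay above every LMNA library. By gene, 27 of 31 tested members had a log2 fold change above 0 in LMNA, against 43.1% of all 33893 tested features. The median log2 fold change was 0.28 over the members, 0.11 over the 432 other tested nuclear tRNA features, 0.41 over 33 other RNA polymerase III features (mostly 5S rRNA) and -0.05 over all features. With total counts in place of TMM, the median was 0.32 over the members, with 27 of 31 above 0, and -0.04 over all features. In a bulk library, fewer cells that carry an RNA and less of it per cell cannot be told apart.

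No member passed the test in LMNA against GFP. With edgeR's quasi-likelihood test and Benjamini-Hochberg adjustment, 0 of 31 members and 0% of all features had an adjusted p under 0.05. At an unadjusted p under 0.05, 10 members were higher and 0 lower, against 2.83% and 2.63% of all features, and DESeq2 called 1 member (0.0443% of all features). The 3 LMNA libraries lay above all 3 GFP libraries for 10 of 31 members, against 4.16% of all features. Of these 10, 8 were Tyr genes and 2 Phe genes. The GFP libraries set the size of this difference: without GFP replicate 2 the member median was 0.05 with 17 of 31 above 0, without GFP replicate 1 it was 0.52, and without GFP replicate 3 it was 0.54.

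Among the Phe genes, all 11 had log2 fold changes above 0 in LMNA against GFP, from 0.06 to 1.09. TRF-GAA5-1 (chr6:28764362-28764484, plus strand) read 2.12, 0.764 and 0.811 CPM (GFP), 2.98, 2.17 and 2.70 (LMNA), 1.26, 1.35 and 1.40 (LMNB1) and 1.89, 1.81 and 1.16 (LMNB2). Its LMNA libraries were the highest, above every library of the other groups. Its log2 fold change in LMNA against GFP was 1.09 ± 0.34 (SE) with an edgeR adjusted p of 0.882. It was called only without GFP replicate 1 and with no count filter. TRF-GAA6-1, its neighbour on chromosome 6, read 0.490, 0.250 and 0.192 CPM in GFP and 0.566, 0.456 and 0.544 in LMNA, groups that overlapped. Its 3 LMNB2 libraries read 0.440, 0.377 and 0.405 CPM, and the log2 fold change of LMNB2 against GFP was 0.41 ± 0.25 (adjusted p 0.377 with edgeR), or 0.85 and called without GFP replicate 1.

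The most abundant Phe genes differed less. TRF-GAA1-5 read 5.89, 3.53 and 3.44 CPM (GFP), 5.17, 4.99 and 5.52 (LMNA), 4.65, 5.37 and 5.01 (LMNB1) and 4.33, 4.45 and 4.38 (LMNB2). TRF-GAA3-1 read 5.35, 3.10 and 4.23 CPM (GFP), 5.15, 5.18 and 5.60 (LMNA), 4.43, 5.54 and 4.61 (LMNB1) and 4.22, 3.88 and 4.65 (LMNB2). In both genes every LMNA library lay above every LMNB2 library, and GFP overlapped all lamin groups. TRF-GAA2-1 had the lowest p among members below 0 in LMNB1 against GFP, at 2.62, 3.20 and 2.41 CPM against 5.55, 2.29 and 2.47. Its log2 fold change was -0.32 ± 0.27 (adjusted p 0.881 with edgeR) and 0.19 without GFP replicate 1.

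Among the 13 tested Tyr genes, 11 had log2 fold changes above 0 in LMNA against GFP, with a median of 0.46. TRY-GTA4-1 on chromosome 14 read 13.2, 11.6 and 16.6 CPM (GFP), 26.3, 20.2 and 22.5 (LMNA), 17.4, 20.2 and 21.4 (LMNB1) and 14.0, 15.6 and 13.3 (LMNB2). LMNA and LMNB1 lay above GFP with no overlap, and LMNB2 lay within the GFP range. Its log2 fold change in LMNA against GFP was 0.74 ± 0.21 (adjusted p 0.882 with edgeR), and it was called without GFP replicate 3. The 5 Tyr genes of the chromosome 14 group (TRY-GTA4-1, TRY-GTA5-3, TRY-GTA5-4, TRY-GTA5-5 and TRY-GTA7-1) each lay higher in all LMNA than in all GFP libraries, with log2 fold changes of 0.74, 0.54, 0.44, 0.74 and 0.46. This separation was not particular to chromosome 14: it held for 8 of 13 tested Tyr genes, against 4.16% of all features. One of the others was tRNA-Tyr-GTA-10-1 on chromosome 7.

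The most abundant Tyr genes did not show that separation. TRY-GTA2-1 read 39.6, 39.4 and 92.3 CPM (GFP), 59.7, 59.3 and 57.7 (LMNA), 54.1, 55.8 and 65.2 (LMNB1) and 41.0, 40.2 and 38.7 (LMNB2). GFP replicate 3 was the highest of all 12 libraries, and every LMNB2 library lay below every LMNA and LMNB1 library. TRY-GTA1-1 read 60.9, 33.2 and 32.2 CPM (GFP), 39.7, 39.6 and 43.2 (LMNA), 37.4, 43.3 and 39.1 (LMNB1) and 36.4, 39.5 and 40.8 (LMNB2). GFP replicate 1 was its highest library, and the other 11 lay between 32.2 and 43.3 CPM. Its log2 fold change in LMNA against GFP was -0.05 ± 0.24, and 0.30 without GFP replicate 1.

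Of the 7 Trp genes, 5 had log2 fold changes above 0 in LMNA against GFP, with a median of 0.12, and the LMNA and GFP libraries overlapped at all 7. TRW-CCA4-1 read 4.25, 2.14 and 3.64 CPM (GFP), 3.79, 3.00 and 3.58 (LMNA), 3.18, 3.58 and 3.32 (LMNB1) and 2.71, 2.58 and 2.81 (LMNB2). TRW-CCA2-1 read 2.92, 1.65 and 3.32 CPM (GFP), 3.43, 2.63 and 2.95 (LMNA), 2.38, 2.91 and 2.59 (LMNB1) and 2.21, 2.29 and 2.53 (LMNB2). In both, all LMNB2 libraries lay below all LMNA libraries.

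**Figure D2:**
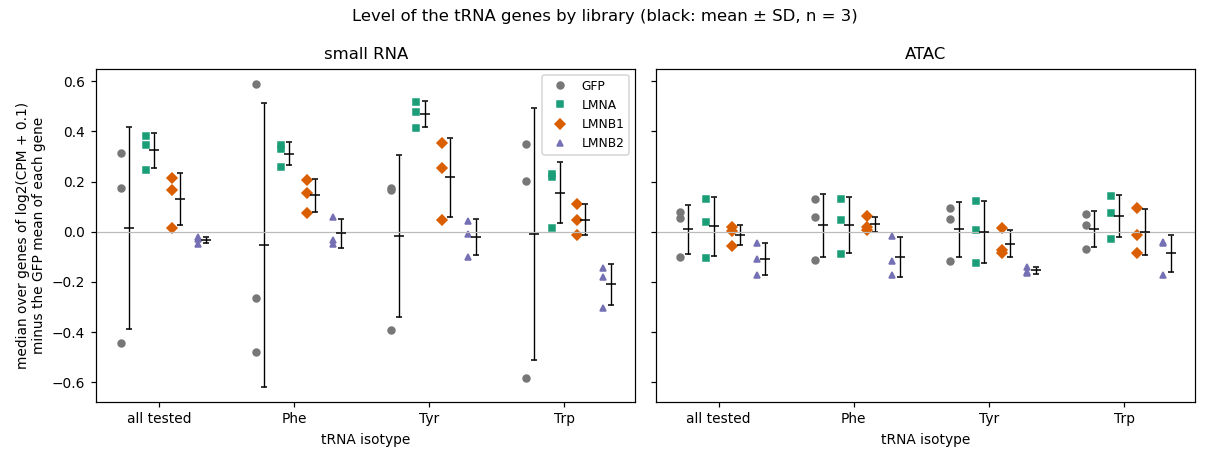
Median over genes of log2(CPM + 0.1) minus each gene's GFP mean, 1 point per library, for all tested members and for each isotype, in small RNA (left) and ATAC (right); black bars show mean ± SD of 3 libraries. In small RNA the GFP libraries run from -0.44 to 0.31 over all members, the LMNA libraries lie at 0.32 ± 0.07 and the LMNB2 libraries at -0.03 ± 0.01.

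Medians against GFP were closer to 0 in LMNB1 and LMNB2 than in LMNA, an order that turned without GFP replicate 2, where LMNA was the closest at 0.05. In LMNB1 against GFP, 22 of 31 members had log2 fold changes above 0 (44.1% of all features) with a median of 0.06, and 0 members passed the edgeR test against 0.0384% of all features. At an unadjusted p under 0.05, 2 members were higher (2.23% of all features) and 0 lower (3.28%), DESeq2 called 1 (0.0590%), and 2 lay above GFP without overlap (4.76%). In LMNB2 against GFP, 12 of 31 lay above 0 (46.8% of all features) with a median of -0.08, and 0 passed the edgeR test against 2.66% of all features. There, 1 member was lower at an unadjusted p under 0.05 (10.4% of all features) and DESeq2 called 0 (2.34%). No member's libraries were free of overlap, against 12.1% of all features higher and 10.2% lower. Over the 432 other tested tRNA features the median was -0.21, and 62 were lower and 6 higher without overlap. With total counts in place of TMM, the LMNB2 median over the members was 0.20 while that of all features was 0.19. The member with that lowest p, TRW-CCA5-1, rested on a mean of 11.1 counts and read 0.0859, 0.0220 and 0.146 CPM in GFP and 0.0482, 0.0320 and 0.0355 in LMNB2. Its log2 fold change was -0.97 ± 0.41 (adjusted p 0.201 with edgeR), with overlapping groups. Without GFP replicate 2, the member medians were -0.14 in LMNB1 and -0.26 in LMNB2 against GFP, and without GFP replicate 1 they were 0.23 and 0.17.

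LMNB2 against LMNA uses no GFP mean, and the 2 groups were separated at most genes. The summed member level was 224, 229 and 222 CPM in LMNB2, all below the LMNA libraries. The log2 fold change lay below 0 for 30 of 31 members and above 0 for 1 (49.4% of all features), with a median of -0.36 against -0.01 over all features and -0.42 over the other tRNA features. All 3 LMNB2 libraries lay below all 3 LMNA libraries for 24 of 31 members, made up of 9 of 11 Phe, 10 of 13 Tyr and 5 of 7 Trp genes, against 13.5% of all features. The same held for 248 of 432 other tRNA features, so the separation was shared with tRNA genes of other amino acids. Over the 33 other RNA polymerase III features the median was -0.41, and without overlap 0 were lower and 2 higher. One member, tRNA-Tyr-GTA-10-1, passed the edgeR test, against 2.01% of all features in either direction and 0.268% lower in LMNB2. At an unadjusted p under 0.05, 10 members were lower (6.65% of all features). Without GFP replicate 3, 6 of 31 members passed, all Tyr genes (TRY-GTA2-1, TRY-GTA4-1, TRY-GTA5-1, TRY-GTA5-3, TRY-GTA5-4 and tRNA-Tyr-GTA-10-1), and calls over all features rose to 5.68%. When only the LMNA and LMNB2 libraries entered the fit, 12 of 30 members passed, and 10.5% of all features did. Leaving out single libraries gave medians of -0.46 to -0.36, and total counts in place of TMM gave -0.14 for the members and 0.20 for all features.

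LMNB1 lay below LMNA and above LMNB2 at most members. Against LMNA, 29 of 31 log2 fold changes were below 0 and 2 above (51.0% of all features), with a median of -0.23, and 10 members had LMNB1 libraries all below LMNA (7.51% of all features). None passed the edgeR test (0.0118% of all features), 5 were lower at an unadjusted p under 0.05 (3.25%) and DESeq2 called 0 (0.0295%). LMNB2 lay below LMNB1 at 25 of 31 members and above at 6 (49.2% of all features), with a median of -0.15, without overlap at 11 (14.1% of all features), and 1 member passed the edgeR test (2.19% of all features), and 2 were lower at an unadjusted p under 0.05 (6.23%). In the joint test of the 3 lamins being equal, 1 member passed (1.93% of all features), and 7 had an unadjusted p under 0.05 (16.0% of all features). Over the other tested tRNA features the medians were -0.07 in LMNB1 against LMNA and -0.37 in LMNB2 against LMNB1. Over the other RNA polymerase III features they were -0.55 and 0.14. These comparisons share libraries and are not independent of one another.

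**Figure D3:**
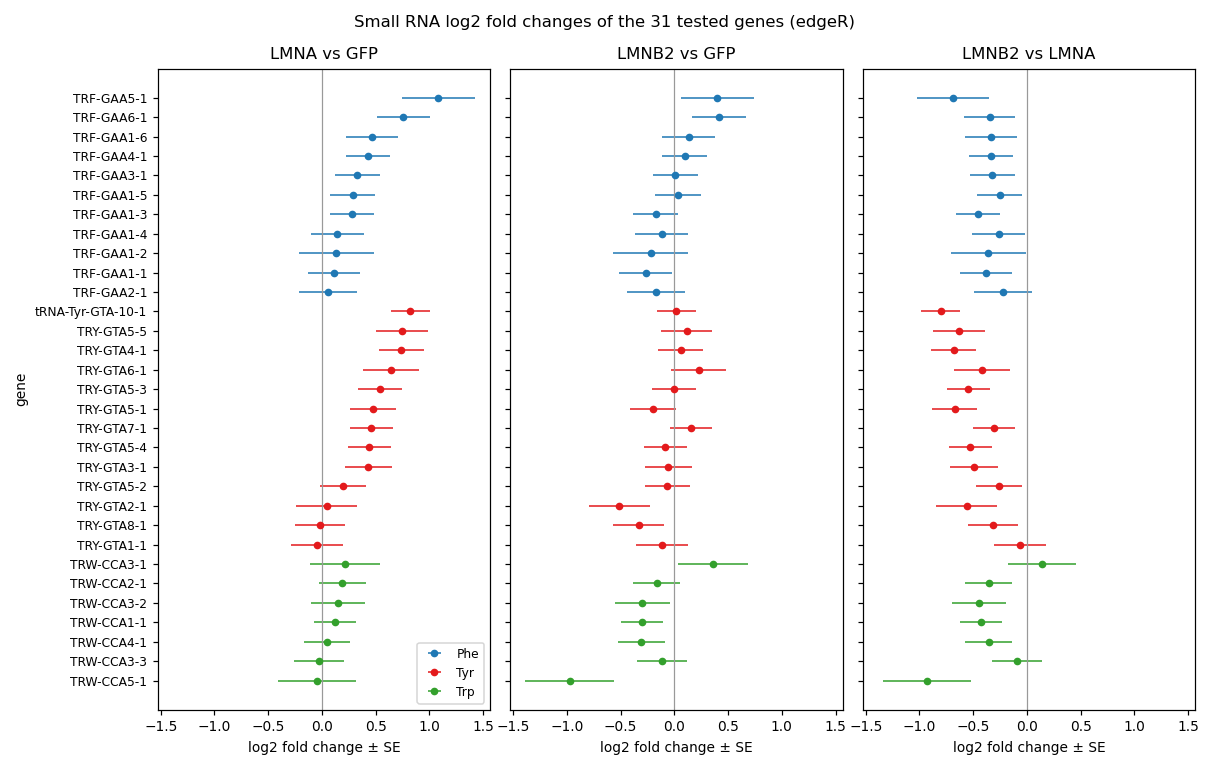
edgeR log2 fold changes ± SE of the 31 tested genes in small RNA for LMNA vs GFP, LMNB2 vs GFP and LMNB2 vs LMNA (x axis, log2), 1 row per gene, coloured by isotype. LMNA vs GFP lies above 0 for 27 genes and LMNB2 vs LMNA below 0 for 30, while LMNB2 vs GFP lies on both sides of 0.

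The member that passed the test was tRNA-Tyr-GTA-10-1 (chr7:149558017-149558139, plus strand), a feature annotated as a Tyr tRNA. It had 3.25, 2.26 and 2.50 CPM (GFP), 4.92, 4.76 and 4.47 (LMNA), 4.38, 4.65 and 4.52 (LMNB1) and 2.56, 2.72 and 2.81 (LMNB2), from 307 to 791 counts per library. LMNA and LMNB1 libraries lay above every GFP and LMNB2 library, and GFP and LMNB2 overlapped. The feature fell by 0.80 ± 0.18 on the log2 scale in LMNB2 against LMNA (adjusted p 0.0301) and fell by 0.74 ± 0.18 in LMNB2 against LMNB1 (adjusted p 0.0409), and the joint edgeR test gave an adjusted p of 0.0393. Against GFP its log2 fold changes were 0.82 ± 0.18 in LMNA (adjusted p 0.696), 0.76 ± 0.18 in LMNB1 (adjusted p 0.593) and 0.02 ± 0.18 in LMNB2. It was called against GFP in 3 of 18 alternatives in LMNA and in 1 of 18 in LMNB1. The calls between lamins were lost when any single LMNA, LMNB1 or LMNB2 library was left out, with LMNB2 against LMNA at adjusted p of 0.0519 to 0.144 in those fits.

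The locus lies among other annotated features. RefSeq placed no tRNA gene there, and the position lies within ZNF767P, a transcribed pseudogene. It overlapped 5 long noncoding RNA features of the table: 4 intervals named lnc-ZNF746-3 on the minus strand and lnc-KRBA1-1 on the plus strand. The 4 lnc-ZNF746-3 intervals held 404 to 1063 counts per library, and their log2 fold changes in LMNB2 against LMNA were -0.76 to -0.75 with adjusted p of 0.0469 to 0.0487. These intervals overlap one another and held nearly the same counts in each library, so they are not 4 separate measurements. lnc-KRBA1-1 had a log2 fold change of -0.60 (adjusted p 0.175). Whether counting used strand is not given in the sources used here, so counts of the overlapping features cannot be told apart. In GFP replicate 1 the member held 378 counts and the longest lnc-ZNF746-3 interval 519. The lnc-ZNF746-3 values may therefore repeat those of the member. ATAC signal there was low, at 0.171 CPM per kb and a mean of 15.2 counts. Long noncoding RNA intervals also overlapped 13 other members, among them TRY-GTA4-1, TRY-GTA7-1, TRY-GTA5-1 and TRY-GTA5-2.

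The mitochondrial tRNAs of the same amino acids, which the mitochondrial polymerase transcribes, were read in the same libraries. MT-TF (Phe) had 39.7 ± 17.4 CPM (GFP), 39.3 ± 6.40 (LMNA), 34.7 ± 3.03 (LMNB1) and 30.2 ± 2.01 (LMNB2). MT-TY (Tyr) had 25.9 ± 1.23, 28.1 ± 0.80, 23.8 ± 0.97 and 24.6 ± 0.68 CPM in the same order. MT-TW (Trp) had 3.47 ± 1.63, 2.34 ± 0.40, 2.79 ± 0.20 and 2.26 ± 0.06 CPM. All values are means ± SD of 3 libraries. The 3 LMNA libraries lay above the 3 LMNB2 libraries for MT-TY, and those groups overlapped for MT-TF and MT-TW.

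In ATAC-seq the isotypes were closer together. Tyr genes held 48.3% of the members' ATAC CPM, Phe 29.0% and Trp 22.6%, and all 33 members passed the filter on low counts. TRY-GTA2-1 was again the highest, at 21.7 CPM per kb of its window (the interval and 125 bp on each side), followed among Tyr genes by TRY-GTA5-4 (chr14:20663167-20663310, minus strand) at 10.3. The highest Phe genes were TRF-GAA1-3 (chr11:59557472-59557594, minus strand) at 10.6 and TRF-GAA1-5 at 9.37. The highest Trp genes were TRW-CCA2-1 at 10.9 and TRW-CCA3-3 (chr17:8186333-8186454, plus strand) at 9.61. Over the 12 libraries, TRF-GAA1-3 read 3.41 to 4.43 CPM, TRY-GTA5-4 3.73 to 4.61, TRW-CCA2-1 3.52 to 4.64 and TRW-CCA3-3 3.14 to 4.15, with overlap between all groups except that LMNB2 lay below LMNB1 at TRW-CCA2-1. TRY-ATA1-1 and tRNA-Tyr-GTA-9-1 were lowest in ATAC too, at 0.0864 and 0.0865 CPM per kb.

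ATAC signal was denser at most of the genes than beside them. In GFP the signal per kb of the window exceeded that of the flanks of 500 bp, which start 350 bp outside it, at 29 of 33 members, with a median ratio of 3.78. The median was 5.86 for Phe, 3.78 for Tyr and 1.34 for Trp genes. The ratio was highest at TRF-GAA3-1 with 15.6 and lowest at TRF-GAA6-1 with 0.196, where a flank covers TRF-GAA5-1. The median ratio over all members was 3.42 in LMNA, 4.07 in LMNB1 and 3.82 in LMNB2. With flanks of 50000 bp in place of 500 bp, the GFP medians were 4.79 for Phe, 8.45 for Tyr and 6.62 for Trp genes. The order of the isotypes thus depended on the flank.

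**Figure D4:**
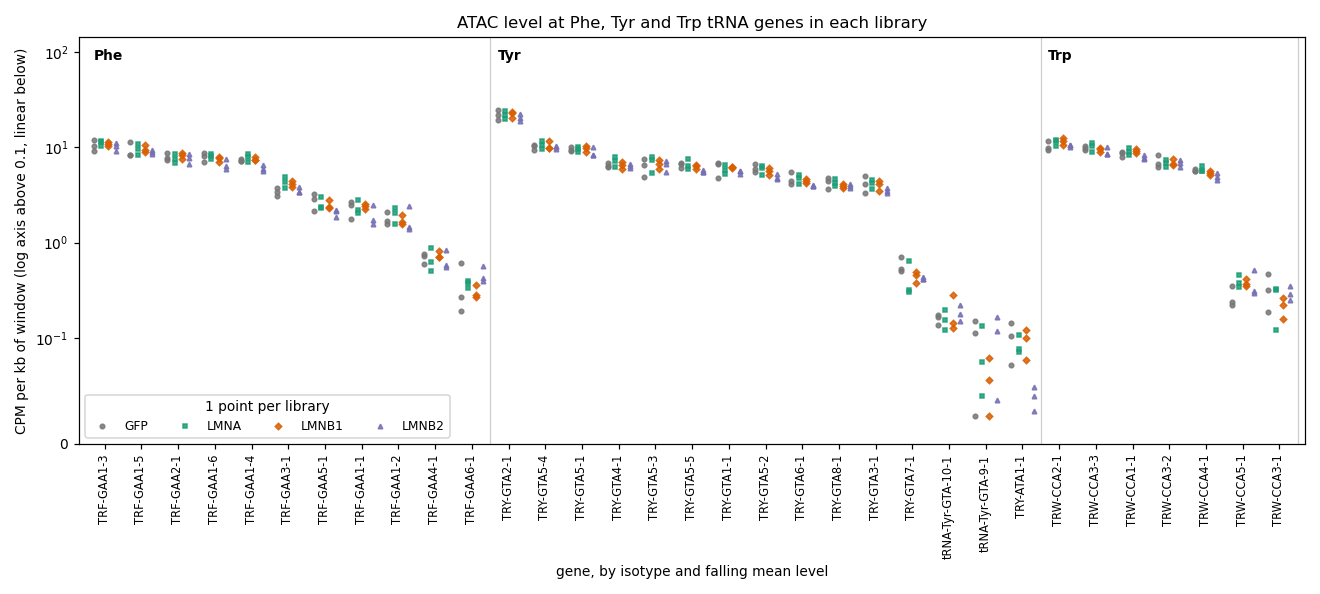
ATAC level of each gene in CPM per kb of window (log axis above 0.1, linear below), 1 point per library, coloured by group, ordered by isotype and mean level. TRY-GTA2-1 leads with a mean of 21.7, and libraries of different groups mostly overlap.

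Small RNA and ATAC levels ran together in part. Spearman's rho between the mean levels per kb was 0.46 over 33 members, 0.84 over 15 Tyr, 0.37 over 11 Phe and 0.57 over 7 Trp genes, given as a description because copies share sequence and libraries. TRY-GTA7-1 and tRNA-Tyr-GTA-10-1 had little ATAC signal (0.466 and 0.171 CPM per kb) at small RNA levels of 31.9 and 29.7 CPM per kb. TRF-GAA1-3 and TRF-GAA1-6 had ATAC levels of 10.6 and 7.53 CPM per kb at small RNA levels of 6.79 and 5.28. The 6 Phe genes on chromosome 6 had ATAC levels of 0.374 to 3.86 CPM per kb, below the 7.19 to 10.6 of the 5 Phe genes elsewhere, while their small RNA levels overlapped (3.21 to 37.9 and 5.28 to 38.4 CPM per kb). This split was noticed in the data and has no test.

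**Figure D5:**
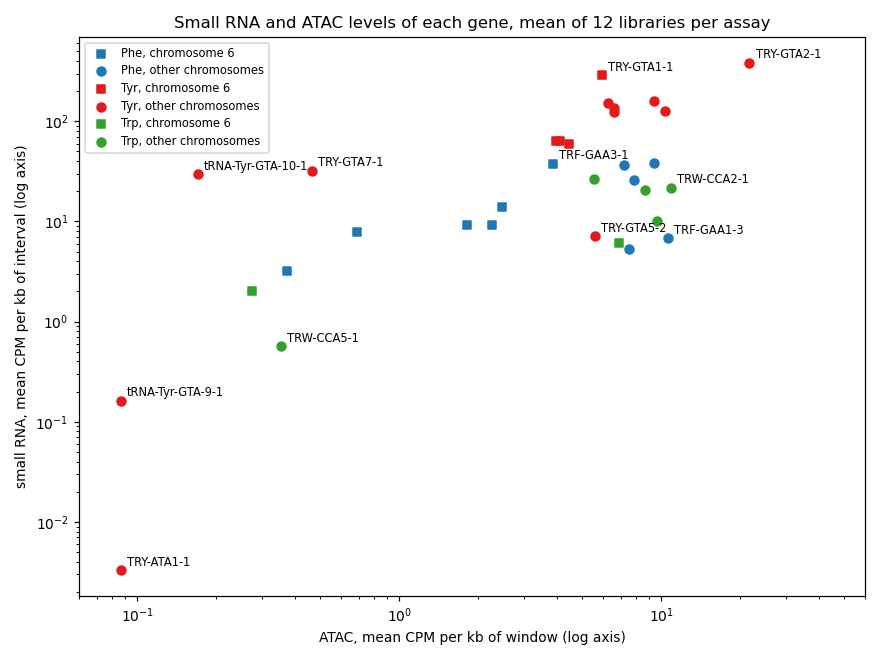
Mean small RNA level (y axis, CPM per kb of interval) against mean ATAC level (x axis, CPM per kb of window) of the 33 genes over 12 libraries per assay, both axes logarithmic, coloured by isotype, with squares for chromosome 6. Phe genes on chromosome 6 lie left of all other Phe genes, at ATAC levels of 0.374 to 3.86, and tRNA-Tyr-GTA-10-1 and TRY-GTA7-1 lie far left for their small RNA level.

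No member passed the ATAC test in any comparison. In LMNA against GFP, 0 of 33 members were called with edgeR (0.000611% of all 163786 tested windows), the median log2 fold change was 0.01 with 20 members above 0 (49.6%), 1 member was higher at an unadjusted p under 0.05 (2.82%) and 1 was higher without overlap (4.81% of all windows). In LMNB1 against GFP, 0 were called (0.00305% of all windows), the median was -0.00020 with 16 members above 0 (49.5%), and 1 member was higher at an unadjusted p under 0.05 (2.26%). Without overlap, 2 were higher (4.62%) and 1 lower (3.84%). The member with an unadjusted p under 0.05 was TRF-GAA3-1 in both comparisons. It read 1.16, 1.40 and 1.27 CPM (GFP), 1.62, 1.84 and 1.41 (LMNA), 1.65, 1.55 and 1.43 (LMNB1) and 1.26, 1.44 and 1.27 (LMNB2). LMNA and LMNB1 lay above GFP with no overlap, with log2 fold changes of 0.34 ± 0.12 (adjusted p 0.915 with edgeR) and 0.27 ± 0.12 (adjusted p 0.978). Its small RNA levels in LMNA and LMNB1 overlapped those in GFP. DESeq2 called 0 members in LMNA against GFP (0.0263% of all windows) and 0 in LMNB1 against GFP (0.00366%). Single libraries turned the direction of both medians. The LMNA median was -0.04 without GFP replicate 3 and -0.02 without LMNA replicate 2, with 13 and 14 members above 0, and the LMNB1 median ran from -0.0866 to 0.0723.

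LMNB2 libraries had slightly lower ATAC signal at most members. In LMNB2 against GFP, 26 of 33 log2 fold changes were below 0 and 7 above (49.1% of all windows), with a median of -0.10, against -0.0034 over all windows and -0.09 over the other tRNA features. None was called with edgeR (0.00244% of all windows) or DESeq2 (0.0641%). At an unadjusted p under 0.05, 8 were lower and 0 higher (2.83% of all windows lower), and 7 were lower without overlap (4.72% of all windows). TRF-GAA1-4 (chr12:124927818-124927940, minus strand) read 2.85, 2.67 and 2.67 CPM (GFP), 3.18, 2.99 and 2.62 (LMNA), 2.77, 2.96 and 2.75 (LMNB1) and 2.08, 2.43 and 2.20 (LMNB2). Every LMNB2 library lay below the other 9. Its log2 fold change was -0.29 ± 0.09 against GFP (adjusted p 0.853 with edgeR) and -0.38 ± 0.09 against LMNA (adjusted p 0.486), and the second was called when only those 6 libraries entered the fit. With total counts in place of TMM, the LMNB2 against GFP median was 0.0049 with 17 of 33 above 0, while all windows had a median of 0.11.

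LMNB2 also lay below the other lamins in ATAC. Against LMNA, 26 of 33 members were below 0 and 7 above (49.4% of all windows), with a median of -0.13. Without overlap, 7 were lower (8.49%) and 1 higher (8.04%). Against LMNB1, 28 of 33 were below 0 and 5 above (48.6% of all windows), with a median of -0.11. Without overlap, 8 were lower (5.24%) and 1 higher (6.17%). LMNB1 against LMNA had a median of -0.04 with 13 members above 0 (51.6% of all windows), and no member was free of overlap (5.52% of all windows were higher and 5.46% lower). That median was 0.02 without LMNA replicate 2 and 0.0094 without LMNB1 replicate 3, each with 19 members above 0. edgeR called 0 members in each of these comparisons (0.00305%, 0.00305% and 0.223% of all windows) and 0 in the joint test (0.0916%). In the same order, DESeq2 called 0, 0 and 0 (0.0452%, 0.0116% and 0.449% of all windows), and 1 (TRF-GAA1-4) in the joint test (0.377%). At an unadjusted p under 0.05, 8 members were lower in LMNB2 against LMNA (3.61% of all windows), 2 against LMNB1 (1.83%), 0 in LMNB1 against LMNA (3.62%), and 4 differed in the joint test (6.24%).

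The 2 assays did not rank the members' changes alike. Spearman's rho between small RNA and ATAC log2 fold changes over 31 members was -0.09 in LMNA, -0.12 in LMNB1 and -0.19 in LMNB2 against GFP, as descriptions. TRF-GAA5-1, with the highest LMNA fold change in small RNA, had an ATAC log2 fold change of -0.10 ± 0.15 in LMNA and -0.41 ± 0.15 in LMNB2 against GFP. The most accessible member, TRY-GTA2-1, read 9.61, 8.40 and 7.48 ATAC CPM in GFP and 8.0, 7.39 and 8.79 in LMNB2, groups that overlapped. TRY-GTA7-1 (-0.46 ± 0.28 in LMNA), TRW-CCA3-1 (-0.56 ± 0.38 in LMNB1) and TRW-CCA5-1 (0.44 ± 0.32 in LMNB2) had the lowest p in their direction against GFP among ATAC members not described above, with edgeR adjusted p of 0.979, 0.978 and 0.921 and mean counts of 41.6, 23.8 and 31.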

How the data were processed

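The authors deposited a table of raw counts per assay, whole numbers that were not normalized, with a column per library. The intervals matched RefSeq tRNA genes extended by 25 bp on each side (21 bp on one side of TRF-GAA5-1), and the ATAC windows were those intervals widened by 125 bp on each side. Per the submitters' processing notes the build was GRCh38. The aligner, the counter, the use of strand, the handling of multi-mapped or duplicate reads, and whether ATAC positions were shifted are not given in the sources used here. Groups came from the sample titles.

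Each assay was fitted once over its 12 libraries with edgeR 4.0.16 in R 4.3.3 (TMM scaling, filterByExpr, robust quasi-likelihood, prior count 2), with Benjamini-Hochberg adjustment over all 33893 small RNA features or 163786 ATAC windows tested and a threshold of 0.05. The biological coefficient of variation was 0.227 in small RNA and 0.0850 in ATAC. The scripts were tested on simulated counts with changes set in LMNB2 against GFP. In small RNA the edgeR test recovered 29% of 2-fold and 99% of 4-fold changes, and in ATAC 94% and 100%. A small RNA member that was not called may therefore still differ. A member was named where it had one of the 2 highest levels per isotype in an assay, passed a test, or had the lowest p per direction against GFP, and others named beside these were picked after their values were seen. Alternatives were DESeq2 1.42.0, other scalings, no filter, only the libraries compared, a replicate block, isodecoders averaged, and leaving out each library. The members and gene lists were chosen with earlier results of these data known.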

Additional observations from a re-analysis of the deposited data

Results flagged for a closer look

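The 3 lamins differed at tRNA-Tyr-GTA-10-1 in small RNA by the joint edgeR test of equal levels (adjusted p 0.0393). The level was 2.67 ± 0.517 CPM (GFP), 4.72 ± 0.230 (LMNA), 4.52 ± 0.133 (LMNB1) and 2.70 ± 0.130 (LMNB2), as mean ± SD with n = 3. The joint test passed in 6 of 17 alternatives, with adjusted p from 0.000256 to 0.525. The 4 overlapping lnc-ZNF746-3 intervals, which held nearly the same counts as one another, had log2 fold changes of -0.76 to -0.75 in LMNB2 against LMNA. Their part in the counts was not tested.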

How the results depend on the processing

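In small RNA the member median kept its direction in LMNA against GFP and in the 3 comparisons between lamins under every alternative run. The number of called small RNA members was moved by single libraries and by the test. The share of all features called in the same fit follows each count in parentheses. With no count filter it was 2 (0.0737%) in LMNA against GFP, 1 (0.0969%) in LMNB1 against LMNA, 2 (0.818%) in LMNB2 against LMNA and 2 (1.11%) in the joint test. With DESeq2 it was 1 (0.0443%) in LMNA and 1 (0.0590%) in LMNB1 against GFP and 3 (1.49%) in LMNB2 against LMNA. When only the libraries compared entered the fit it was 1 of 31 (0.358%) in LMNB1 against LMNA, 12 of 30 (10.5%) in LMNB2 against LMNA and 7 of 30 (15.5%) in LMNB2 against LMNB1. With total counts only it was 0 in LMNB2 against LMNA (0.926%), LMNB2 against LMNB1 (0.180%) and the joint test (0.811%). With the replicate block it was 0 (1.70%) in LMNB2 against LMNB1, with tRNA-Tyr-GTA-10-1 at adjusted p 0.0657, and 0 (1.64%) in the joint test. The block changed no other call. Deviations of same-numbered libraries correlated at -0.04 to 0.23 in small RNA and -0.08 to 0.19 in ATAC. In each assay 2 of 18 pairs were over 0.1 and 7 of 12 libraries correlated best with their own number. A shared preparation was not tested. Leaving out one library gave 0 to 2 called members in LMNA and in LMNB2 against GFP, 0 to 6 in LMNB2 against LMNA (6 without GFP replicate 3), 0 to 2 in LMNB2 against LMNB1 and 0 to 4 in the joint test. The lowest value came from any LMNA, LMNB1 or LMNB2 library in the last 3. The highest came without GFP replicate 3, where the shares were 0.842% in LMNA against GFP, 5.68% and 6.00% in LMNB2 against LMNA and LMNB1, and 6.16% in the joint test, or without GFP replicate 1 for LMNB2 against GFP (3.71%).

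With total counts only, the small RNA medians were 0.20 in LMNB2 against GFP, -0.0819 in LMNB1 against LMNA and -0.14 in LMNB2 against LMNA, and the ATAC medians were 0.19 in LMNB1 and 0.0049 in LMNB2 against GFP, 0.0612 in LMNB1 against LMNA and -0.18 in LMNB2 against LMNB1. All-feature medians moved with them, to 0.11 in LMNB1 and 0.19 in LMNB2 (small RNA) and 0.09, 0.19 and 0.11 in LMNA, LMNB1 and LMNB2 (ATAC) against GFP. Single libraries moved the medians from -0.46 to -0.36 in LMNB2 against LMNA (small RNA) and from -0.0866 to 0.0723 in LMNB1 against GFP (ATAC). ATAC calls were 1 (TRF-GAA1-4, 0.614% of all windows) with only the libraries compared in LMNB2 against LMNA, 1 (0.377%) with DESeq2 in the joint test, and 0 to 1 in the joint test without a library (1 without LMNB1 replicate 3, 0.672%). The log2 fold change of TRY-GTA1-1 in LMNA against GFP was 0.0648 with total counts only and 0.0162 when low features were kept. Leaving out single libraries gave -0.18 (without GFP replicate 2) to 0.30 (without GFP replicate 1) for it. That of TRF-GAA2-1 in LMNB1 against GFP ran from -0.535 to 0.195, the highest without GFP replicate 1. The cause of these changes was not tested.

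Over all alternatives, 416 recomputed counts of calls and medians stayed near the reported value (a count within 1.5 times, a median within the spread between replicates) and 62 did not. A count that stayed at 0 scored as near. In small RNA that spread included the GFP libraries, whose medians had an SD of 0.40. The LMNA against GFP median of 0.05 without GFP replicate 2 therefore scored as near 0.28. These totals are no measure of how firm a single result is. Depth limits the low members most: the mean small RNA count per library was 11.1 at TRW-CCA5-1, 38.9 at TRW-CCA3-1 and 61.7 at TRF-GAA6-1.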
